A study of Caenorhabditis elegans with 12 samples.

Results

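The comparison described here is the response of worms carrying the wrn-1(gk99) allele to vitamin C. The members are the 14246 genes, of 45327 in the table of normalized read counts, whose mean was at least 10 over the 6 libraries compared. These are 3 libraries of wrn-1(gk99) worms grown with 10 mM sodium ascorbate and 3 libraries of wrn-1(gk99) worms grown without it. The threshold fell between Y69A2AR.19, with a mean of 10.0007, and C10C5.5, with a mean of 9.993.

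Whole Caenorhabditis elegans larvae were synchronised by bleaching, placed on plates as L1 larvae, grown at 25°C and collected at the L4 stage. The gk99 allele is a deletion in wrn-1, and the mutant had been out-crossed to the wild type N2 strain. The stage was judged under Nomarski optics from the vulva and the gonad, and RNA was taken by stage and not by hours of growth, and each L4 population was read as a whole, so a change in the number of cells of a type and a change in RNA per cell cannot be told apart. The series has 12 libraries in 4 groups, the other groups being N2 worms with and without the same vitamin C treatment.

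WRN-1 is the worm counterpart of the human WRN helicase, a RecQ enzyme that unwinds DNA and whose loss causes Werner syndrome. Ascorbate is an antioxidant and keeps iron-dependent oxygenases active, among them the prolyl hydroxylases that modify collagen. The worm cuticle is a collagen matrix secreted by the epidermis and rebuilt at each larval molt. Many genes for cuticle collagens, hedgehog-related proteins and molting proteins are switched on and off once in each larval stage, so their mRNA depends on the exact point within a stage.

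The 3 treated libraries had 26467255, 13446257 and 22582056 reads on genes, and the untreated libraries had 34234211, 23706370 and 19681435. Correlations of log2 values across the genes were 0.993 to 0.996 among treated libraries, 0.995 to 0.997 among untreated libraries and 0.977 to 0.982 between the groups. Untreated replicates 1 and 2 lay closest, with a chi-square of 1.35 per gene, against 6.07 to 20.53 between the remaining replicates of the same wrn-1(gk99) group, so the spread between samples may be partly technical. They still differed by more than counting noise, and both were kept. Among the N2 libraries, vitamin C replicate 3 stood apart. It correlated at 0.9944 to 0.9966 with the treated wrn-1(gk99) libraries and at 0.962 to 0.963 with the other treated N2 libraries. The first range is as high as that among the treated wrn-1(gk99) libraries themselves. The N2 label of replicate 3 is therefore uncertain, and its strain was not tested. That library enters none of the fits to the mutant alone, and each comparison with N2 is given with and without it.

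The wrn-1 gene itself had 835, 648 and 671 normalized counts in treated wrn-1(gk99) worms, against 854, 789 and 699.9 in untreated ones. The groups overlapped (log2 fold change -0.12 ± 0.10 (SE), limma adjusted p = 0.371, n = 3 each). N2 worms had 407, 380.3 and 614 normalized counts with vitamin C and 516, 499 and 502 without it. A count over the whole gene does not show which part was deleted, so these values neither bear out nor contradict the genotype. Of the 10 RecQ helicases and partners tested, 0 passed an adjusted p of 0.01 (limma), and their log2 fold changes ran from -0.12 to 0.10.

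Marker genes of tissues were examined next to the response. Of the 9 intestinal markers tested, 1 was called lower and the median was -0.55 on the log2 scale. At an adjusted p below 0.01 (limma), 5 were lower and 1 higher, beside 14.2% and 12.6% of all genes tested. The summed counts of the intestinal markers were 52743 to 57243 in treated worms and 81279 to 83923 in untreated worms. The 12 epidermal markers had a median of 0.06, with dpy-13 called lower, and 5 were lower and 1 higher at that adjusted p. Their summed counts were 36977 to 40836 in treated worms and 56021 to 57964 in untreated worms. The 10 pharyngeal markers had a median of -0.21, with none called and 5 lower and 1 higher at that adjusted p. Their summed counts were 13559 to 16482 in treated worms and 18739 to 19839 in untreated worms. The 9 body wall muscle markers had a median of -0.02, the 12 neuronal markers -0.02, the 12 germline markers 0.00 and the 9 oocyte markers 0.06. In each of these lists no member was called and at most 1 passed the adjusted p. The 8 markers of seam and vulva tested had a median of -0.28, with 2 higher and 2 lower at an adjusted p below 0.01 and summed counts of 1140.3 to 1176 in treated worms and 1451 to 1676 in untreated worms. Of the 10 sperm markers, 3 passed the minimum mean of 10, and the summed count of all 10 was 52.6 to 70.4 in treated worms and 66.6 to 81.8 in untreated ones. The part of these marker differences in the results was not tested.

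A gene was called when its limma adjusted p was below 0.01, its group means differed by a factor of at least 2 and its mean reached 150 in at least one group. By this rule 352 of the 14246 genes differed between treated and untreated worms (2.47%), 210 higher in treated worms (1.47%) and 142 lower (0.997%). The groups did not overlap for any of these 352 genes, while 51.0% of all genes tested also had no overlap between the groups. The median ratio was 2.52 for the genes called higher, and 66 of them were at least 3-fold higher. Of the genes called lower, 9 were at least 3-fold lower, and the largest decrease was 4.25-fold. With no minimum on fold, an adjusted p below 0.01 was reached by 1799 genes that were higher (12.6%) and 2019 that were lower (14.2%). The counts in the gene lists were not tested against these shares. Over all 14246 genes the median was -0.01 on the log2 scale. One fit over all 12 libraries called 189 genes higher and 68 lower, and the same fit without N2 vitamin C replicate 3 called 211 and 142. Genes that lost the call in the fit over all 12 libraries, at the same fold changes, included dpy-13, dpy-4, dpy-5, col-107, col-116, grd-6 and cut-2.

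**Figure D1:**
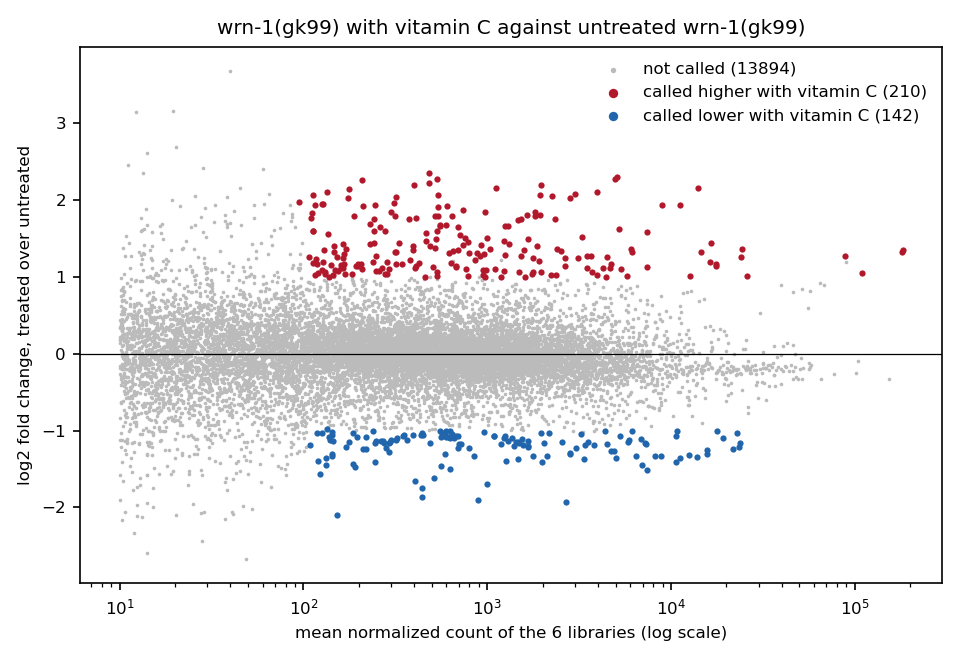
Mean normalized count over the 6 libraries (x axis, log scale) against the log2 fold change of treated over untreated wrn-1(gk99) worms (y axis), one point per gene tested. Red points are the 210 genes called higher, blue points the 142 called lower and grey points those not called, and the called genes reach 5.17-fold higher and 4.25-fold lower.

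The genes called higher included the most abundant collagen mRNAs. col-158, a cuticle collagen, had 249013, 267773 and 270591 normalized counts in treated worms, against 101449, 100270.0 and 106688 in untreated ones. The treated libraries all lay well above the untreated libraries (ratio 2.55, log2 fold change 1.35 ± 0.09 (SE), limma adjusted p = 2.8e-06). col-43 had 260000.0, 250131 and 260255 normalized counts in treated worms, against 101339, 100958 and 105784 in untreated ones, and rose 2.501-fold. col-84 rose 2.41-fold, to 124299 ± 5736 in treated worms, against 51655 ± 3027 in untreated worms (SD, n = 3 each). Where reads of near-identical collagens could be shared, the counts of single members are uncertain.

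Of the 160 genes named col, which encode cuticle collagens, 126 were tested. Of these, 13 were called higher, 34 were called lower and 79 were not called. The median over these 126 genes was -0.48 on the log2 scale. Without the fold threshold, 32 passed the adjusted p in the higher direction and 65 in the lower one. Over all genes tested, 1.47% were called higher and 0.997% lower, and 12.6% and 14.2% passed the adjusted p. More col genes were called lower than higher, but the summed collagen reads were higher in treated worms. Most of the rise in the sum lay in col-158, col-43 and col-84, so it does not show a rise across the family. The col genes together made up 6.59%, 7.01% and 6.85% of all normalized counts in treated worms, against 4.45%, 4.48% and 4.49% in untreated worms.

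The 10 other collagens called higher were less abundant, and their ratios ran from 2.12 to 4.22. col-163 had 3419.7, 2849 and 3095 normalized counts in treated worms and 755, 736 and 726 in untreated worms, a 4.22-fold rise. col-123 averaged 17848 ± 182 in treated worms and 4670.1 ± 37.1 in untreated ones. col-116 rose 3.42-fold, and col-114, col-45 and col-164 rose 2.71, 2.58 and 2.51-fold. The remaining members called higher, col-172, col-124, col-47 and col-105, rose by 2.12-fold to 2.21-fold.

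The 34 collagens called lower, whose ratio the call holds to 0.5 or less, had ratios between 0.3796 for col-133 and 0.499 for col-160. col-107 had 5205, 5054 and 4799.5 normalized counts in treated worms, against 12626, 12878 and 12501 in untreated worms, and the groups did not overlap. col-17 fell to 14704 ± 359 in treated worms, against 32929.7 ± 464 in untreated worms (SD, n = 3 each). On chromosome III, the adjacent genes col-92, col-93 and col-94 were all lower, with log2 fold changes of -1.16, -1.18 and -1.17. They lie opposite the gene dhc-4 on the other strand, whose own mean was 21.4 in treated and 22.98 in untreated worms.

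Collagens known from body shape mutants also gave calls in both directions. Of the 13 in the list, rol-8, which gives a roller phenotype when mutated, was called higher and 6 were called lower, with a median of -0.94. The shares of all genes tested were 1.47% called higher and 0.997% called lower. rol-8 rose 2.07-fold, to 146869 ± 2178 normalized counts in treated worms, against 71043 ± 432 in untreated worms. dpy-13, whose loss gives short dumpy worms, had 14682, 14233 and 13589.7 normalized counts in treated worms, against 33244, 32974 and 32388 in untreated worms. The groups did not overlap (ratio 0.431, log2 fold change -1.21 ± 0.06 (SE), limma adjusted p = 3.37e-07). dpy-4 and dpy-5, also dumpy collagens, fell to 0.424 and 0.4897 of the untreated level, and ram-2 fell to 0.395. The calls of sqt-1 and sqt-2, at ratios of 0.498 and 0.498, lay at the fold threshold and were lost in 8 and 7 of 23 alternatives.

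The 6 furrow collagens, which build the circular furrows of the cuticle, were all lower at an adjusted p below 0.01 and all by less than 2-fold. Among all genes tested, 14.2% were lower at that adjusted p. Their log2 fold changes ran from -0.38 for dpy-10 to -0.29 for dpy-3. dpy-7 had 2549.5, 2704 and 2631 normalized counts in treated worms, against 3387, 3426 and 3263 in untreated worms, and the groups were separate. Larval collagens are described as early, intermediate or late in each larval stage. The early class here is the same 6 furrow genes. The intermediate genes dpy-5 and dpy-13 and the late genes col-10, col-12 and sqt-1 were called lower, with log2 fold changes between -1.21 and -1.01.

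No enzyme that makes or trims collagen was called. Of 16 tested in the collagen processing list, 0 were called higher and dpy-20, which encodes a zinc finger protein and not an enzyme, was called lower. It had 243, 234 and 292 normalized counts in treated worms, against 524, 534 and 535 in untreated worms. Among all genes tested, 1.47% were called higher and 0.997% lower. At an adjusted p below 0.01 (limma), 6 of the 16 were higher and 3 lower, beside 12.6% and 14.2% of all genes tested. dpy-18 and phy-2, the alpha subunits of prolyl 4-hydroxylase that hydroxylate proline in collagen, had log2 fold changes of 0.36 ± 0.05 (SE) and 0.11 ± 0.05 (SE), and the first passed an adjusted p of 0.01 (limma adjusted p = 0.000321). bli-3, a dual oxidase that crosslinks cuticle proteins, had 7875, 6463 and 6777 normalized counts in treated worms, against 4402, 4366 and 3985 in untreated worms. Its tetraspanin partner tsp-15 and its maturation factor doxa-1 also passed the adjusted p, at log2 fold changes of 0.67 and 0.28. Of the 16 genes tested for enzymes linked to ascorbate, none was called, and 3 passed the adjusted p in the higher direction and 3 in the lower one (limma). The shares over all genes tested were 12.6% and 14.2%. The log2 fold changes of these 16 genes ran from -0.76 to 0.94. egl-9, the prolyl hydroxylase that marks HIF-1 for destruction, had a log2 fold change of -0.33, and gbh-2, a hydroxylase of carnitine synthesis, one of -0.76. Both passed the adjusted p, but not the fold threshold.

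Hedgehog-related proteins are secreted, mostly from the epidermis. Of 54 tested, 6 were called higher and 7 lower, beside 1.47% and 0.997% of all genes tested. The median was 0.19. grl-19 had 7805, 8673 and 8287 normalized counts in treated worms, against 1663, 1674 and 1757 in untreated worms. grl-3 had 3080.3, 3312 and 3278 in treated and 702, 671 and 727 in untreated worms, and grl-17 had 23532, 22497 and 22395 in treated and 5068, 5167 and 5048 in untreated worms. For each of these 3 genes the groups were at least 4-fold apart. grl-9, grd-9 and grl-20 rose 2.26, 2.0996 and 2.02-fold. In the other direction, grd-6 fell to 297 ± 9.78 in treated worms, against 819 ± 11.4 in untreated worms, and grl-16 fell to 3725 ± 250.4, against 10149 ± 344 (SD, n = 3 each). grd-14, grd-2, grl-4, grl-21 and wrt-4 had ratios of 0.451 to 0.492. The gene opposite grl-19 on the other strand, R02D3.1, had 2675 normalized counts in treated and 4910.0 in untreated worms. Of 28 patched-related genes, ptr-23 and ptr-13 were called lower, at ratios of 0.4897 and 0.496, and the call of ptr-13 was lost under 5 of 23 alternatives.

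mlt-10 and its paralogues encode secreted epidermal proteins, and mlt-10 is needed for molting. Of the 14 genes of the family, 12 were tested, 5 were called higher and 2 lower, beside 1.47% and 0.997% of all genes tested. The values within the family went in opposite directions. mlt-10 itself had 1916, 1682 and 1855 normalized counts in treated worms, against 4067, 4132 and 4526 in untreated worms. mltn-9 fell to 449 ± 31.7 in treated worms, against 944 ± 50.3 in untreated ones, while mltn-10 had 206, 180.0 and 223 in treated and 86.9, 65.6 and 55.7 in untreated worms. mltn-10 lost its call in the fit over all 12 libraries. mltn-7 had 933, 651 and 841 normalized counts in treated worms, against 146, 167 and 157 in untreated worms, the largest ratio of all genes called, at 5.17. mltn-11 averaged 347 ± 7.14 in treated and 71.3 ± 4.199 in untreated worms. mltn-6, mltn-7 and mltn-8 lie side by side on chromosome V and rose 3.81, 5.17 and 3.57-fold.

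**Figure D2:**
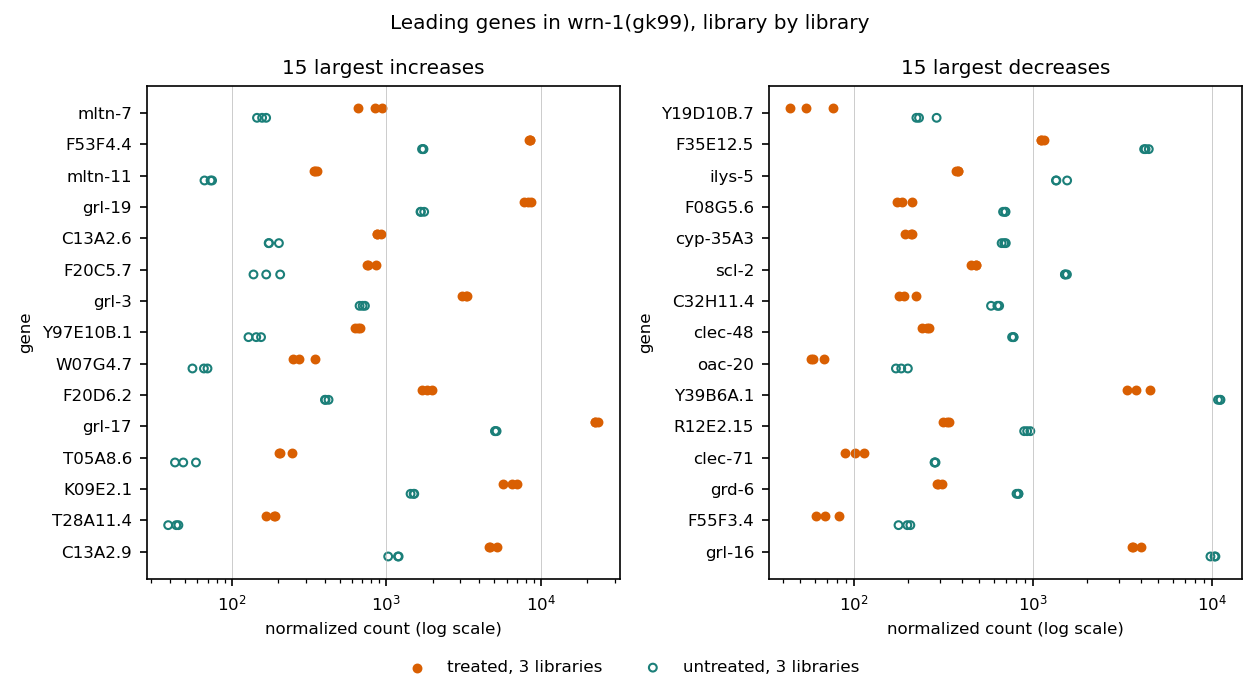
Normalized counts (x axis, log scale) of the 15 called genes with the largest ratio and the 15 with the smallest ratio, one row per gene. Filled points are the 3 treated libraries and open points the 3 untreated libraries of wrn-1(gk99) worms. In every row the groups are apart, by 5.17-fold for mltn-7 and 4.25-fold for Y19D10B.7.

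The wider list of molting genes gave 2 calls. Of 23 tested, mlt-10 and nas-36, an astacin protease needed for molting, were called lower and none higher. The shares of all genes tested were 0.997% called lower and 1.47% called higher. At an adjusted p below 0.01 (limma), 9 of the 23 were lower and 8 higher. Among 18 regulators of the molt cycle and of developmental timing, 0 were called, but 7 were lower at an adjusted p below 0.01 and none was higher. Among all genes tested, 14.2% were lower and 12.6% higher at that adjusted p. nhr-23, a nuclear receptor that drives molting genes, had 1006, 840.4 and 939 normalized counts in treated worms, against 1283, 1313 and 1342 in untreated worms. nhr-25, another receptor of the epidermis, fell to 416 ± 15.99 in treated worms, against 703 ± 3.67 in untreated worms. nhr-85, the worm member of the Rev-erb family, had a log2 fold change of -0.87 ± 0.12 (SE), and lin-42, the period-like regulator of molt timing, one of 0.28 ± 0.13 (SE), which did not pass (limma adjusted p = 0.124). The median of the regulators was -0.22 and was -0.05 without treated replicate 2. Worms of both groups were collected by stage, and the effect of vitamin C and of any difference in stage that remained cannot be told apart here.

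Cuticlins are insoluble cuticle proteins. Of 37 genes of the cuticlin and zona pellucida list, cut-5 and cut-6 were called higher and cut-2 and cut-4 lower. Among all genes tested, 1.47% were called higher and 0.997% lower. cut-5 had 2803, 2847 and 2830.0 normalized counts in treated worms, against 799.7, 799 and 849 in untreated worms, and cut-6 rose 3.097-fold. cut-2 fell to 4656 ± 530.1 in treated worms, against 11685 ± 563 in untreated worms (SD, n = 3 each).

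Genes of epidermal attachment and of the intermediate filaments of the gut included several decreases. In the list of 15 attachment genes tested, which link cuticle, epidermis and muscle, 2 were called lower and 3 passed the adjusted p in the lower direction. These shares over all genes tested were 0.997% and 14.2%. mup-4, a transmembrane protein of the epidermal attachments to muscle, had 5235, 3914 and 4331 normalized counts in treated worms, against 10401, 10304 and 9138 in untreated worms. lam-3, a laminin alpha chain, averaged 366 ± 116 in treated and 753 ± 87.4 in untreated worms, and its call was lost in 7 of 23 alternatives. The 6 intermediate filament genes of the gut had a median of -0.99. ifb-2 had 3438, 3323 and 3469 normalized counts in treated worms, against 7176, 6939 and 7299.8 in untreated worms, and ifd-1 and ifc-1 fell to 0.476 and 0.428 of the untreated level. ifc-2 and ifp-1 were lower at ratios of 0.534 and 0.563, and ifd-2 was higher at 1.26, below the fold threshold.

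**Figure D3:**
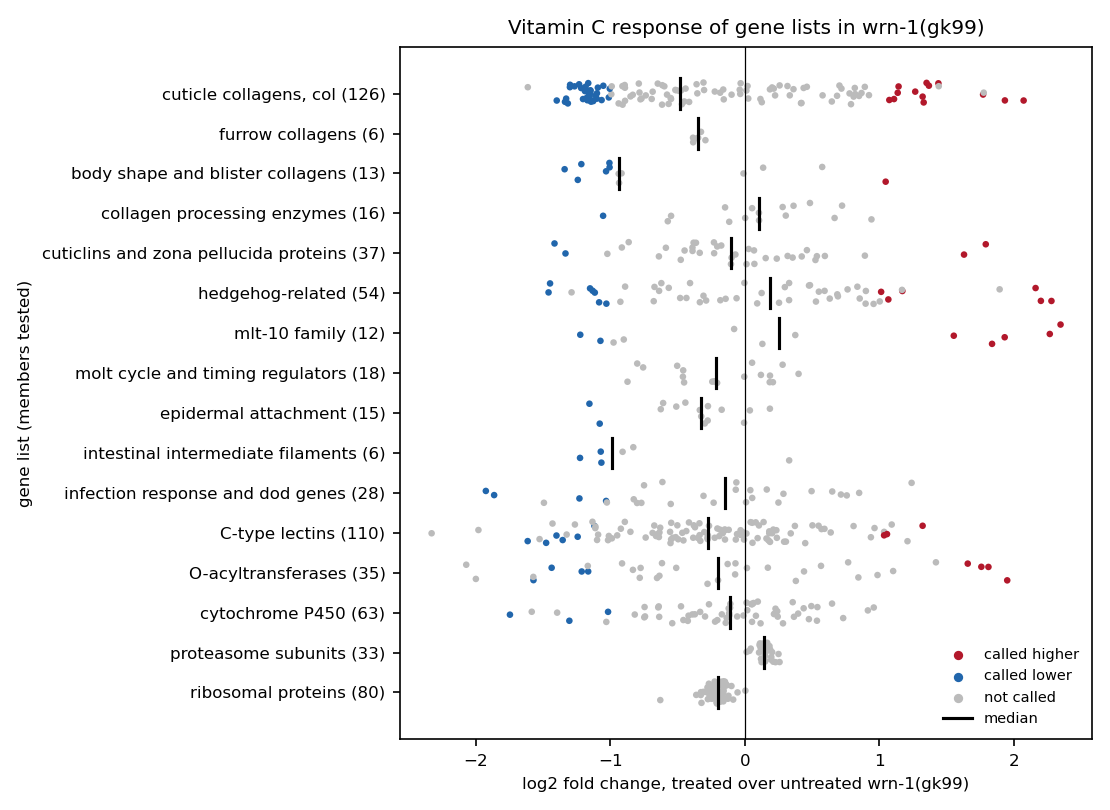
Log2 fold change of treated over untreated wrn-1(gk99) worms (x axis) for the tested members of 16 gene lists, one point per gene, with the number tested in brackets. Red is called higher, blue is called lower, grey is not called, and the black bar is the median, which is -0.48 for the col genes and 0.14 for the proteasome.

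Genes of defence were called in both directions. In the list of 28 infection response and dod genes, which are named for infection or for control by DAF-16, 4 were called lower and 0 higher. F35E12.5, also named irg-5, had 1107, 1155 and 1111 normalized counts in treated worms, against 4238, 4159 and 4415 in untreated worms. F08G5.6, also named irg-4, fell to 189.9 ± 18.9, against 691 ± 11.7 (SD, n = 3 each). ilys-5, an invertebrate-type lysozyme, had 368, 379 and 379 normalized counts in treated worms, against 1345, 1338 and 1545 in untreated worms. Of 110 C-type lectins, 6 were called lower and 3 higher, and 43 passed the adjusted p in the lower direction, 12 in the higher one. Among all genes tested, 0.997% were called lower and 1.47% higher, and 14.2% and 12.6% passed the adjusted p. clec-48 fell to 251 ± 11.2 in treated worms, against 770.4 ± 8.15 in untreated worms, and clec-234 rose 2.51-fold. Y19D10B.7, also named pud-1.2, had 43.9, 53.997 and 76.3 normalized counts in treated worms, against 222, 230.0 and 288 in untreated worms, the lowest ratio of all genes called. Of 39 antimicrobial peptide genes, cnc-9, a caenacin, and spp-13, a saposin, rose 2.09 and 2.05-fold.

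Enzymes of detoxification and acyl transfer were mixed. Of 63 cytochrome P450 genes, 3 were called lower and 0 higher, and cyp-35A3 had 192, 210.4 and 209 normalized counts in treated worms, against 665, 687 and 702 in untreated worms. cyp-35A4 fell to 0.402 of the untreated level. Among 35 membrane acyltransferases, oac-23, oac-24, oac-41 and oac-56 rose 3.93, 3.51, 3.34 and 3.14-fold, and oac-20, oac-34, oac-30 and oac-1 fell, with ratios of 0.333 to 0.446. Of 63 glucuronosyltransferases tested, ugt-18 rose 3.25-fold and ugt-65 and ugt-13 fell. Of 38 glutathione transferases, gst-35 rose 3.78-fold and gst-16 rose 2.08-fold. Of 14 P-glycoprotein transporters, pgp-1 and pgp-14 fell to 0.399 and 0.447 of the untreated level. None of the 25 superoxide dismutases, catalases and related genes tested was called in either direction, and 4 passed the adjusted p higher and 4 lower. None of the 49 heat shock genes was called, and 2 passed the adjusted p higher and 13 lower (limma). Over all genes tested, 1.47% were called higher and 0.997% lower, and 12.6% and 14.2% passed the adjusted p.

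Lipid genes were called only in the higher direction, but more of them passed the adjusted p lower than higher. At an adjusted p below 0.01 (limma), 9 of 16 desaturases and elongases were lower and 3 higher. Of 51 genes of fatty acid activation and oxidation, 18 were lower and 4 higher. Of 38 lipases and fatty acid binding genes, 16 were lower and 7 higher. Among all genes tested, 14.2% were lower and 12.6% higher at that adjusted p, and 1.47% were called higher. elo-4, a fatty acid elongase, had 13692, 14445 and 14287 normalized counts in treated worms, against 3885, 3653 and 3572 in untreated worms, a 3.82-fold rise. It was the only called member of 16 desaturases and elongases tested. fasn-1 and pod-2, which carry out fatty acid synthesis, had ratios of 0.679 and 0.582. cpt-5, a carnitine palmitoyltransferase, rose 2.105-fold, and the lipase lips-8 rose 3.15-fold. far-3, a fatty acid and retinol binding protein, was called higher at 2.02 and lost the call in 5 of 23 alternatives.

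Many of the called genes lie on chromosome V. It held 90 of the 210 genes called higher and 42 of the 142 called lower, from 2996 genes tested, which is 21.03% of all tested. That is 3.00% of its tested genes called higher and 1.40% called lower. The other chromosomes had 0.625% to 1.59% of their genes called higher and 0.41% to 1.24% called lower. Among the protein-coding genes tested, 4 runs of at least 3 neighbours called in the same direction were found, 3 of them higher and 1 lower.

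The longest stretch lies on chromosome V among genes of unknown function. The run of C13A2.5, C13A2.4, C13A2.3, C13A2.1, F07G11.4, srj-32 and F07G11.3 comprised 7 genes, and a run of C13A2.9, C13A2.7 and C13A2.6 lies just beside it. C13A2.9 had 4637, 5195 and 4664 normalized counts in treated worms, against 1189, 1201 and 1028 in untreated worms. C13A2.4 averaged 2843 ± 113 in treated and 791 ± 14.996 in untreated worms. The gene between the 2 runs, C13A2.10, had a log2 fold change of 2.15 but missed the minimum count, with means of 74.2 and 15.8 in treated and untreated worms. F07G11.1 lay just past the run with a log2 fold change of 2.03, with F07G11.2 between them at 1.94. From C13A2.9 to F07G11.1 the log2 fold changes ran from 1.49 for C13A2.7 to 2.27 for C13A2.6. Members of one sequence family may share reads, so single values are uncertain. srj-32 belongs to a family of chemoreceptor genes.

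**Figure D4:**
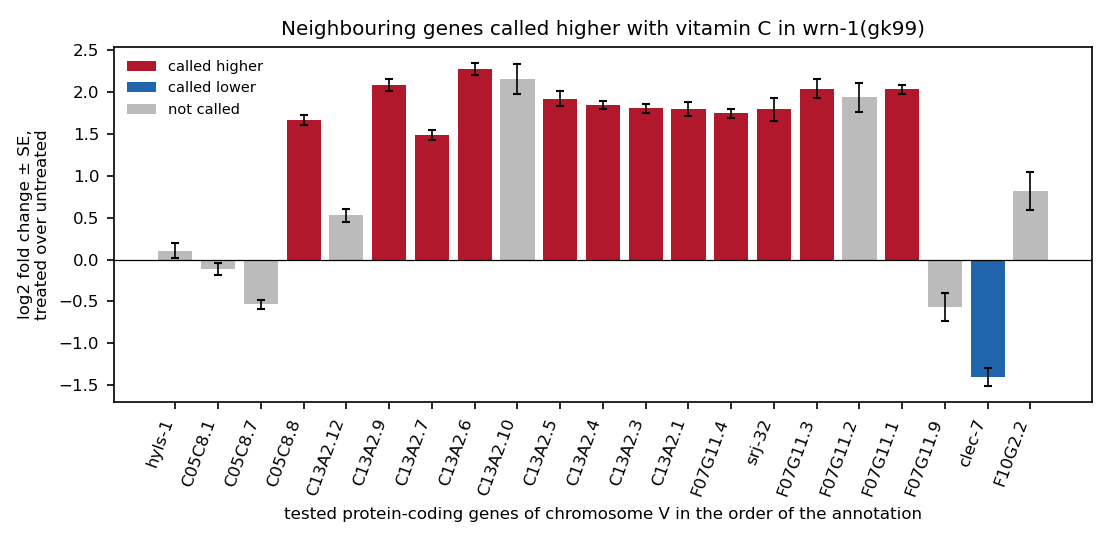
Log2 fold change of treated over untreated wrn-1(gk99) worms (y axis, with SE) for tested protein-coding genes around the C13A2 and F07G11 genes, in the order of the annotation (x axis). Red bars are called higher and blue lower. Bars from C13A2.9 to F07G11.1 lie between 1.49 and 2.27, and clec-7 falls to -1.40.

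Among genes outside the lists, F53F4.4 had 8472, 8385 and 8549 normalized counts in treated worms, against 1701, 1725 and 1739 in untreated worms, and the groups were nearly constant within themselves. K09E2.1 rose to 6412 ± 662 in treated worms, against 1484 ± 43.4 in untreated worms. Y97E10B.1, F20D6.2, F20C5.7, T05A8.6, W07G4.7 and T28A11.4 rose by 4.27-fold to 4.63-fold. In the other direction, scl-2, which encodes a secreted protein of the CAP family, had 476, 478 and 448 normalized counts in treated worms, against 1504, 1501 and 1541 in untreated worms. Y39B6A.1 fell to 3856 ± 585 in treated worms, against 10966 ± 188 in untreated worms, and C32H11.4, R12E2.15 and F55F3.4 had ratios of 0.317, 0.354 and 0.365. The genes clec-71 and oac-20 also stood among the 15 lowest. Of the 352 genes called, 160 of the 210 called higher and 59 of the 142 called lower belonged to none of the lists of gene families and pathways. Of all 14246 genes tested, 12952 belonged to none. The lists were chosen with earlier results of these data known.

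The response in the mutant was set beside that of N2 worms. The N2 calls came from 14377 genes tested, or 14393 without replicate 3. Of the 210 genes called higher in wrn-1(gk99), 2 were also called higher in N2 worms given vitamin C, of 26 called higher there, and 38 were, of 369, without replicate 3. Of the 142 genes called lower, 1 was called lower in N2, of 101 called lower there, and 53 were, of 283, without replicate 3. In the opposite direction, 1 of the 210 was called lower in N2, or 5 without replicate 3. Likewise 1 of the 142 was called higher in N2, or 2 without replicate 3. The genes called higher in the mutant had a median of 0.00 in N2 on the log2 scale, or 0.17 without replicate 3, and that of the genes called lower was -0.35, or -0.93. The count of genes in common therefore rests on that 1 library, whose N2 label is uncertain.

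A test of the difference in response between the strains, over 12 libraries, called 870 of 14352 genes (6.06%), 571 with a more positive response in wrn-1(gk99) and 299 with a more negative one. Scaling the libraries to equal totals gave 467 and 407. Without N2 vitamin C replicate 3, 1114 of 14357 genes were called (7.76%), 626 more positive and 488 more negative. Among the genes called higher in the mutant, 139 of 210 had a more positive response than in N2, and among those called lower, 27 of 142 had a more negative one. Without replicate 3 these were 138 of 210, with 4 more negative, and 30 of 142. The same wrn-1(gk99) libraries made both calls.

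**Figure D5:**
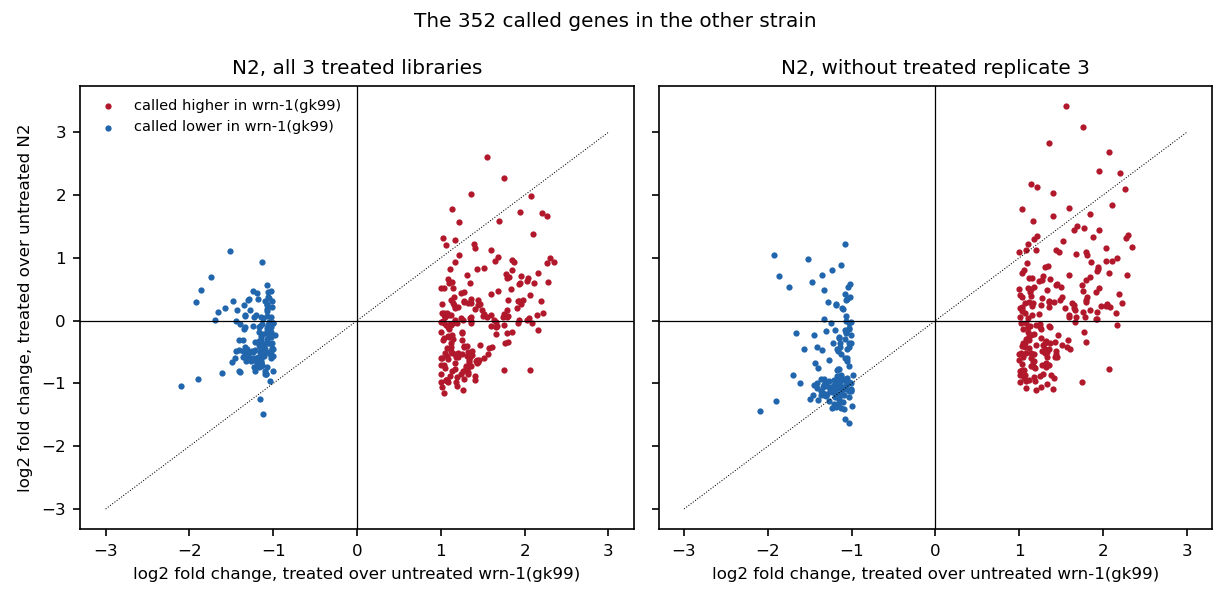
Log2 fold change with vitamin C in wrn-1(gk99) worms (x axis) against that in N2 worms (y axis) for the 352 genes called in the mutant, with all 3 treated N2 libraries (left) and without replicate 3 (right). Red marks the genes called higher in the mutant, blue those called lower, and the dotted line marks equal responses. In N2 the blue points have a median of -0.35 with that library and -0.93 without it.

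The genes the study had named for both strains were all called in the fit to wrn-1(gk99). In N2 with all libraries, 1 of the 142 genes called lower in the mutant was called lower, so mup-4 and C27D9.2 were not both called there. In wrn-1(gk99), ugt-18 had 334, 341 and 379 normalized counts in treated worms, against 118, 101 and 105 in untreated worms, and in N2 it had 332, 296 and 372 with vitamin C, against 126, 113 and 93.8 without. F12A10.1 rose 3.23-fold in the mutant and had 1022, 914 and 869 in treated and 492, 496 and 409 in untreated N2 worms. mup-4 had 6378, 6585 and 4123 normalized counts in N2 worms with vitamin C and 13721, 13591 and 12499 in N2 worms without it. C27D9.2 fell to 87.4 ± 11.95 in treated wrn-1(gk99) worms, against 191 ± 10.7 in untreated ones (SD, n = 3 each). Since these genes were chosen on these libraries, their directions are no independent evidence.

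The untreated strains were also set side by side. The median log2 difference of untreated wrn-1(gk99) over untreated N2 worms was -1.90 for the 210 genes called higher with vitamin C, 1.72 for the 142 called lower and 0.02 over all genes tested. As an example, grl-17 had a mean of 22808 in treated wrn-1(gk99) worms, 5094 in untreated wrn-1(gk99) worms and 19654 in untreated N2 worms. The comparison of the strains and that of the treatment use the same untreated wrn-1(gk99) libraries, so their changes are not independent.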

How the data were processed

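RNA of whole L4 worms was sequenced on an Illumina HiSeq instrument from TruSeq libraries. Per the labels and the methods of the study, the authors aligned reads with TopHat to the ce10 genome, counted them per gene with HTSeq and scaled every library with DESeq size factors. The deposited signal is this normalized read count, with 1 column per library. All columns of values were matched to a sample, with 0 left over. The counting mode and the strand setting are not given in the sources used here.

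The nonzero values were whole multiples of 1 step in 100% of cases in every library, so reads were recovered for edgeR and DESeq2 and for depth. Depth was 13446257 to 34234211 reads in the 6 libraries, and a gene near the minimum mean of 10 rests on few reads. Genes were named, placed on chromosomes and ordered with the WBcel235 annotation, a different build, which held 14097 of the 14246 genes. No coordinates are given.

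limma 3.58.1 under R 4.3.3, with a mean trend in the empirical Bayes step, was fitted to log2 of the normalized count plus 1 for the 2 wrn-1(gk99) groups alone, over genes with a mean of at least 10, with Benjamini-Hochberg adjustment over all of them. Fold changes are on this scale and understate the changes of low genes, and ratios are of group means. The minimum group mean of 150 is the study's own minimum rounded up. With 3 libraries against 3, an exact permutation test cannot go below p = 0.1, so no gene was tested that way. The difference in response between strains was fitted over 12 libraries in 4 groups and called at an adjusted p below 0.01, a difference of at least 1 in log2 and a mean of at least 150 in any group.

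The alternatives were other pseudocounts, minimum means, scalings and call rules, a replicate block, edgeR 4.0.16, DESeq2 1.42.0, all 12 libraries in 1 fit and each library left out. A fit over all libraries but N2 vitamin C replicate 3, and untreated replicates 1 and 2 averaged as 1 sample, were added after seeing the data. The scripts were tested on simulated data.

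The gene lists are the named members of families and pathways, and 3 listed names (ifa-2, opt-2 and elt-5) were not found. Genes named in the text are the 15 highest and 15 lowest ratios among called genes whose groups did not overlap, up to 6 called members in each direction of each list, members of lists of 20 or fewer, wrn-1, genes the study names for vitamin C, the mlt-10 family, called neighbours in runs of 3 or more and the genes beside the minimum mean. C13A2.10, F07G11.1, F07G11.2, dhc-4, R02D3.1 and the other col genes are named besides, after their values were seen. The comparison, the lists and the tests were chosen with earlier results of these data known. No correction for GC content was made, and life spans, RT-PCR and binding site enrichment were not analysed here.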

Additional observations from a re-analysis of the deposited data

Results flagged for a closer look

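Of the 30 genes with the largest and smallest ratios, 17 had a response to vitamin C that differed between wrn-1(gk99) and N2 worms in the test of the difference itself, 11 with a more positive and 6 with a more negative response in the mutant (limma, adjusted p below 0.01 over 14352 genes), beside 6.06% of all genes tested. Without N2 vitamin C replicate 3 these counts were 10 and 8. The 30 genes were chosen by their ratios in the same wrn-1(gk99) libraries that enter the difference, so a high count was built in and supports nothing. Each difference is the log2 fold change in wrn-1(gk99) minus that in N2, given with all libraries and then without N2 vitamin C replicate 3.

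Among the genes that rose in the mutant, T28A11.4 had the largest difference, at 2.86 and 2.84 (adjusted p = 7.76e-07 with all libraries, limma), with 207, 186 and 187 normalized counts in treated N2 worms, against 301, 341 and 368 in untreated N2 worms. F20D6.2 differed by 2.31 and 2.23, C13A2.9 by 2.12 and 1.86, F20C5.7 by 2.0998 and 1.95 and W07G4.7 by 2.06 and 2.03. Y97E10B.1 differed by 1.88 and 1.77, grl-19 by 1.66 and 1.56 and K09E2.1 by 1.51 and 1.15. mltn-7 differed by 1.42 and 1.18 and grl-17 by 1.41 and 1.16. F53F4.4 differed by 1.30 with all libraries and lost the call without replicate 3, at 0.94, below the minimum difference of 1.

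Among the genes that fell in the mutant, Y39B6A.1 had differences of -2.62 and -2.49 (adjusted p = 1.42e-06 with all libraries, limma), with 2716, 2911 and 3693 normalized counts in treated N2 worms, against 1413, 1426 and 1457 in untreated N2 worms. The differences were -2.44 and -2.29 for cyp-35A3, -2.34 and -2.58 for F08G5.6, and -1.80 and -1.46 for C32H11.4. They were -1.80 and -2.09 for clec-71 and -1.44 and -1.22 for F55F3.4. F35E12.5 and oac-20 were called only without replicate 3. F35E12.5 had -2.23 with all libraries (adjusted p = 0.0192, limma) and -2.96 without it (adjusted p = 1.56e-12, limma), and oac-20 had -1.77 (adjusted p = 0.0528, limma) and -1.13 (adjusted p = 0.00772, limma).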

How the results depend on the processing

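The count of 352 calls (210 higher, 142 lower) became 634 (341 and 293) with no minimum group mean, since genes of low counts then enter. One fit over all 12 libraries gave 257, with 189 higher and 68 lower, and the same fit without N2 vitamin C replicate 3 gave 353, with 211 and 142. The other alternatives gave 344 to 354 calls, and leaving out one library gave 338 to 366. Untreated replicates 1 and 2 averaged as 1 sample gave 344. edgeR called 348 and DESeq2 346. Under the other scalings the median over all genes was 0.00, against -0.01.

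Libraries of the same replicate number deviated together by r = 0.10, -0.01 and 0.15 across genes, so the numbers were not taken to pair the samples. The replicate block gave 354 calls, 212 higher and 142 lower, and 809 genes in place of 870 for the difference between strains. That difference gave 738 to 1114 genes with one library left out, the most without N2 vitamin C replicate 3, 909 with edgeR and 1024 with DESeq2.

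Of the 126 named genes called, 82 kept the call in all 23 alternatives, and 36 of the 77 losses came from the fit over all 12 libraries. Without treated replicate 2, clec-228, cyp-13A2, dpy-20, far-3, lam-3, ptr-13, ptr-23 and spp-13 lost it. Without treated replicate 1, dpy-5, sqt-1 and sqt-2 lost it, and without treated replicate 3, far-3, lam-3 and sqt-1. Without untreated replicate 1, cyp-13A2, far-3 and lam-3 lost it, without untreated replicate 2, clec-75, far-3, fbxa-165 and lam-3, and without untreated replicate 3, sqt-1 and sqt-2. No named gene changed direction. Of the medians of 50 lists, 9 changed sign under a scaling, pseudocount 10, edgeR or a left-out library, and 8 of these lay between -0.04 and 0.00. The other, that of the sperm markers, which rests on 3 genes, was 0.41 and ranged from -0.48 without treated replicate 1 to 0.55 without untreated replicate 2. The cause was not tested. The medians that moved by 0.1 or more without a single library included those of mlt-10 relatives, molting genes, epidermal attachment and molt cycle regulators.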

Other observations

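Genes of the ribosome and the proteasome gave no calls. Of 80 ribosomal protein genes tested, 0 were called, 11 were lower at an adjusted p below 0.01 (limma) and 0 were higher, with a median of -0.20 on the log2 scale and a range of -0.63 to 0.00. The share of 11 in 80 is near the 14.2% of all genes tested that were lower. Of 33 proteasome subunits, 7 were higher at an adjusted p below 0.01 and 0 were lower, with a median of 0.14 and a range of 0.01 to 0.26, beside 12.6% of all genes tested that were higher.

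Of 147 F-box A genes tested, which encode adaptors of ubiquitin ligases, 4 were called higher and 0 lower, and the median was 0.21. At an adjusted p below 0.01 (limma), 36 were higher and 6 lower, beside 12.6% and 14.2% of all genes tested. fbxa-27 rose 2.26-fold, to 285 ± 19.4 normalized counts in treated worms, against 126 ± 9.797 in untreated worms (SD, n = 3 each). Of 16 tetraspanins, tsp-1 and tsp-2 rose 2.47 and 2.49-fold. In the insulin pathway 0 of 12 genes tested were called, and daf-16, the transcription factor it controls, had a log2 fold change of 0.28 ± 0.09 (SE), with limma adjusted p = 0.0258. In the hypoxia list 0 of 9 were called. In each of the insulin and hypoxia lists, 1 gene was higher and 2 were lower at an adjusted p below 0.01 (limma). Among all genes tested, 2.47% were called, 1.47% higher and 0.997% lower. Of 5 transcription factors the study names, 0 were called and 0 passed an adjusted p of 0.01.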
